A study of Mus musculus with 15 samples.

Results

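The genes described here are 7 mouse genes for enzymes known as corneal crystallins or closely related to them: the aldehyde dehydrogenase genes Aldh3a1, Aldh1a1, Aldh1a7, Aldh1a3, Aldh2 and Aldh3a2, and the transketolase gene Tkt. They were chosen by name, with earlier results of these data known, as 7 of the 55357 genes counted in each file. All 7 passed the filter on low counts. Whole corneas of mice with both copies of Opa1 (OPA1+/+) and of heterozygous mice (OPA1+/-) were compared by strand-specific RNA sequencing at 3 and 6 months of age. The groups were OPA1+/+ at 3 months (n = 4 libraries), OPA1+/- at 3 months (n = 4), OPA1+/+ at 6 months (n = 3) and OPA1+/- at 6 months (n = 4). Opa1 encodes a mitochondrial GTPase needed for fusion of inner membranes and for the form of the cristae. The labels do not describe the Opa1 allele and give no treatment, strain, sex, litter, batch, time of dissection or number of animals per library, and they do not say whether the libraries came from separate animals. The p-values below therefore measure the spread between these libraries.

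The cornea accumulates a few soluble enzymes to amounts far beyond what catalysis needs, as the lens does with its crystallins, and these proteins are thought to serve transparency and protection from ultraviolet light as well as metabolism. In the mouse the main ones are ALDH3A1, which oxidises aldehydes formed by lipid peroxidation, and transketolase, which moves carbon units between sugars in the non-oxidative branch of the pentose phosphate pathway. Of the other enzymes, ALDH1A1 and ALDH1A3 oxidise retinaldehyde to retinoic acid, ALDH1A7 is a rodent paralogue of ALDH1A1, ALDH2 clears acetaldehyde in the mitochondrial matrix, and ALDH3A2 oxidises fatty aldehydes at the endoplasmic reticulum.

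Libraries held 11673240 to 18194946 counts. Opa1 served as a check of the labels: its CPM (counts relative to the library total, scaled by trimmed-mean factors) was 65.1 to 73.3 in the 7 OPA1+/+ libraries and 45.4 to 57.7 in the 8 OPA1+/- libraries, with no overlap. Krt12, the keratin of corneal epithelium, was at 26068 to 32863 CPM and the eye regulator Pax6 at 1023 to 1185 CPM, so the defining markers of the labelled tissue were present in all 15 libraries. Sums of marker genes, here and below, are CPM of the library total without the trimmed-mean factors. Summed rod photoreceptor markers reached 164 CPM in OPA1+/- replicate 4 at 3 months and 158 CPM in OPA1+/+ replicate 1 at 6 months, against 11.9 to 26.8 CPM in the other 13 libraries. Values without these 2 libraries are given below for the printed genotype and age values of single genes that they moved by over 1.5 times or in sign. Lens markers summed to 161 CPM in OPA1+/- replicate 4 at 3 months and to 36.0 to 77.1 CPM elsewhere. Averaged over genotypes, all 6 tested lens markers and 7 of 8 keratocyte markers were lower at 6 than at 3 months. So were all 6 tested markers of conjunctiva and goblet cells, while 50.5% of all genes were higher. Median log2 values of the 3 lists were -2.29, -0.21 and -0.26, and none of these markers passed the test described below. For genotype averaged over ages, 5 of the 6 conjunctiva and goblet cell markers were lower in OPA1+/-, with a median of -0.40. Apart from fits with a conjunctiva covariate, given below, the part of these tissues in the values of the 7 genes was not tested. In whole tissue, fewer cells of a type and less RNA per cell cannot be told apart.

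Of the 7 genes, Aldh1a1 and Aldh1a7 are near copies of each other, which bears on how well their reads can be assigned. Over 1506 coding bases they were identical at 1380 (91.6%), whereas Aldh3a1 and Aldh3a2 shared 62.4% of aligned positions and Aldh1a1 and Aldh1a3 66.9%. The windows below are shown because they mark the ends of this range for a 75-base read. Of 2284 windows of 75 bases in the principal Aldh1a1 transcript, 50 also occurred in Aldh1a7. Among the reference transcripts of GENCODE M21, 97.8% of Aldh1a1 windows and 97.5% of Aldh1a7 windows were unique. The counts used release 28 and all exons of a gene, for Aldh1a1 4937 bases against 2358 in this transcript, so the rest was not examined. One stretch without a difference spans coding bases 121 to 195, counted from the start codon:
Aldh1a1: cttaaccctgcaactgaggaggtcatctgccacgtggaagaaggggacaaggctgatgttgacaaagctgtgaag
Aldh1a7: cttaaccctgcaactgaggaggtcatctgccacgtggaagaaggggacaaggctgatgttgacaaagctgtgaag
The window with the most differences spans coding bases 317 to 391, where 17 bases differ, shown in capitals:
Aldh1a1: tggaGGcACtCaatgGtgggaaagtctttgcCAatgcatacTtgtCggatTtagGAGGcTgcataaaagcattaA
Aldh1a7: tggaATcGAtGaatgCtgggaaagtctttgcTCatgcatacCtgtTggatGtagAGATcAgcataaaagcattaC

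The likeness of this pair continues upstream of 1 annotated start of Aldh1a1. The RefSeq table lists 2 starts for Aldh1a1 and 1 for Aldh1a7. The 90 bases before the downstream start of Aldh1a1 and before the start of Aldh1a7 are shown because only 3 differ, in capitals (RefSeq on build GRCm38.p6, chr19:20601878-20601967 on the plus strand for Aldh1a1 and chr19:20727557-20727646 on the minus strand for Aldh1a7):
Aldh1a1: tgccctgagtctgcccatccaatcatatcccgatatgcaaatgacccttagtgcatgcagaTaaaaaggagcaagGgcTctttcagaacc
Aldh1a7: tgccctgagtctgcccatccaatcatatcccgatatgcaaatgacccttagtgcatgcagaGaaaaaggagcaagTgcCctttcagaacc
Both hold the octamer ATGCAAAT at base -56 from the start site, while the window of the other Aldh1a1 start (chr19:20492333-20492632) and those of Aldh3a2 and Tkt hold none. The motif was found on either strand in 1.74% of all 32851 windows of 300 bases in the table. With only 3 differing bases, a motif in either stretch is nearly bound to be in the other, so the 2 are not separate finds. The other motif searched, the TATA box TATAAA, was found among these windows only in that of Aldh1a7, at base -244, and in 13.6% of all windows. Farther out the likeness falls, and over the whole window 221 of 315 aligned positions (70.2%) were identical. The table held windows for 4 of the 7 genes, the Aldh1a1 start used was the one whose window was more like that of Aldh1a7, and the length shown was chosen after the alignment was seen.

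In the files, read as GRCm39, the pair lies on chromosome 19, Aldh1a1 from base 20470079 to 20620829 on the plus strand and Aldh1a7 from 20670317 to 20704926 on the minus strand, 49487 bases apart. Aldh3a1 (chromosome 11, 61098363 to 61109247, plus strand) and Aldh3a2 (61114243 to 61158290, minus strand) are also neighbours, 4995 bases apart. Aldh1a3 lies on chromosome 7 (66040638 to 66077265, minus strand), Aldh2 on chromosome 5 (121704090 to 121731887, minus strand) and Tkt on chromosome 14 (30270316 to 30296677, plus strand). All windows of the principal transcripts of Aldh3a1, Aldh1a3, Aldh3a2 and Tkt were unique. In Aldh2, 56 windows matched Gm42879, which overlaps Aldh2 on the opposite strand and had a mean of 0.313 CPM. Windows were matched on either strand, whereas the read counts were strand-specific.

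Aldh3a1 was among the most abundant transcripts of the cornea at every age and in both genotypes. Per kilobase of exon (RPKM, CPM divided by the gene length in the files) it averaged 7453 ± 417 (SD, n = 15 libraries), the 2nd highest level of 21863 nuclear protein-coding genes, after Krt12 (15425) and beside Krt5 (7338), the keratin of basal epithelium. Its lowest and highest libraries were at 6714 and 7978 RPKM. Tkt followed at 808 ± 39.8 RPKM, the 21st of these genes. Next came Aldh1a1 at 37.6 ± 7.04 RPKM, Aldh1a3 at 36.5 ± 5.13 RPKM and Aldh2 at 27.3 ± 1.92 RPKM. The lowest were Aldh3a2 at 5.02 ± 0.33 RPKM and Aldh1a7 at 4.32 ± 0.789 RPKM.

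The ranges of neighbours in this order show where it is firm. Aldh3a1, Tkt and the remaining genes did not overlap, while Aldh1a1 (27.3 to 51.1 RPKM), Aldh1a3 (28.2 to 48.6) and Aldh2 (24.6 to 30.4) overlapped one another, as did Aldh3a2 (4.45 to 5.50) and Aldh1a7 (3.39 to 5.95). The files' gene length joins the exons of all transcripts, and for Tkt it is 7355 bases against 3223 for the principal transcript. With the length of the principal transcript, a choice made after seeing the data, Tkt stood at 1845 RPKM and 11th, Aldh3a1 at 8371 and 3rd, and Aldh3a2, now at 8.09 RPKM or more, no longer overlapped Aldh1a7. The pair of near copies Aldh1a1 and Aldh1a7 were thus far apart in level, on either length.

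**Figure D1:**
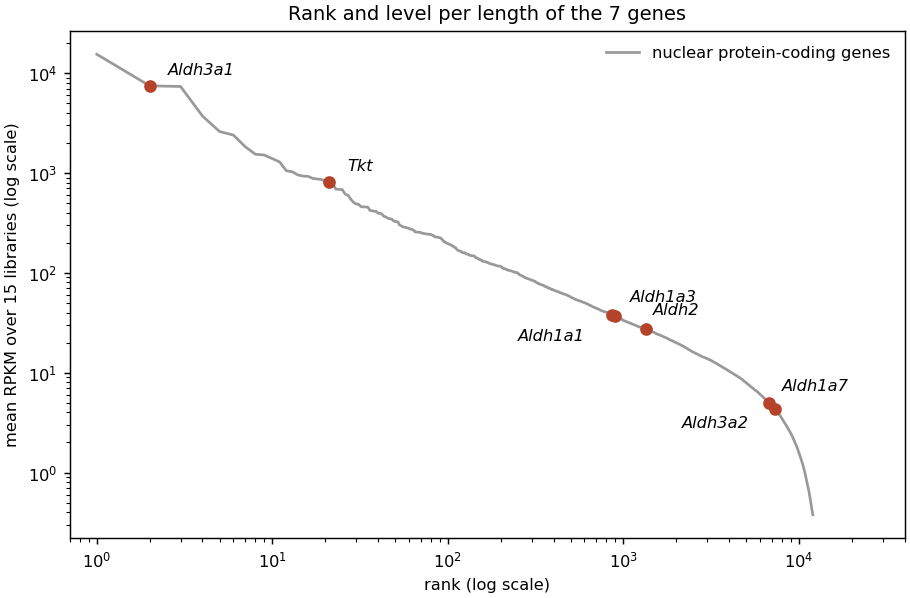
Mean level per length (RPKM over 15 libraries, log axis) against rank (log axis) for nuclear protein-coding genes, with the 7 genes as points. Aldh3a1 at 7453 and Tkt at 808 RPKM lie near the top, and the other 5 lie between 4.32 and 37.6 RPKM.

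As a share of the library, the 7 genes together took 1.91% to 2.21% of all counts (2.10% ± 0.0851, SD, n = 15), which is 223337 to 390654 counts. Aldh3a1 alone took 1.30% to 1.55% and Tkt 0.553% to 0.653%. Exact 95% binomial intervals of these shares were at most 0.0141 percentage points wide for Aldh3a1 and 0.00884 for Tkt, so the spread between libraries was far wider than counting error, which is all that such intervals cover. Aldh3a1 made up 65.5% to 71.5% of the counts of the 7 genes and Tkt 26.1% to 32.1%.

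The summed share in OPA1+/+ at 3 months was 1.91%, 2.00%, 2.11% and 2.21% in replicates 1 to 4, a group as wide as the whole series. In OPA1+/- at 3 months it was 2.13%, 2.16%, 2.21% and 2.15%. At 6 months it was 1.97%, 2.03% and 2.12% in OPA1+/+ and 2.07%, 2.07%, 2.15% and 2.15% in OPA1+/-. The genotypes overlapped at both ages.

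**Figure D2:**
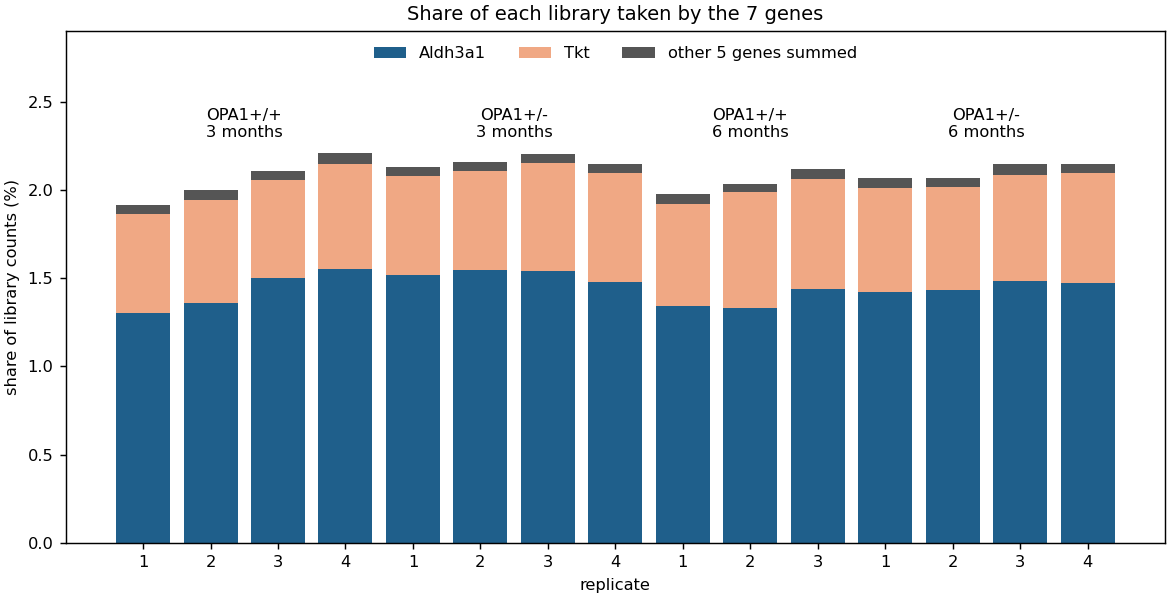
Share of all counts (%, stacked bars from 0) taken by Aldh3a1, by Tkt and by the other 5 genes summed, in each of the 15 libraries by group and replicate. The total runs from 1.91% to 2.21%, and Aldh3a1 makes up most of every bar.

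The first comparison asked whether these transcripts differed between OPA1+/- and OPA1+/+ corneas. None of the 7 genes passed the threshold at 3 months, at 6 months or averaged over both ages. The test was edgeR's quasi-likelihood test, with Benjamini-Hochberg adjustment over 15770 genes and a threshold of 0.05. By this test 0.00634% of all genes were called at 3 months, 0.323% at 6 months and 0.793% over both ages. DESeq2 and limma voom also called 0 of the 7 in each comparison. At an unadjusted p under 0.05 the members numbered 1, 0 and 1, against 9.03%, 10.2% and 12.4% of all genes. Median log2 fold changes of the members were -0.05, 0.03 and 0.01, beside medians over all genes of 0.0030, 0.0024 and 0.0028.

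Aldh3a1 at 3 months was at 12828, 13651, 15220 and 15475 CPM in the 4 OPA1+/+ libraries and at 14984, 15643, 15455 and 14715 CPM in the 4 OPA1+/- libraries. At 6 months it was at 13337, 13165 and 14504 CPM in OPA1+/+ and at 14359, 14473, 14818 and 14531 CPM in OPA1+/-. The groups overlapped at both ages, and replicates 1 and 2 of OPA1+/+ at 3 months and replicates 1 and 2 of OPA1+/+ at 6 months were the 4 lowest libraries. Group means were 14294 ± 1267 and 15199 ± 425 CPM at 3 months, and 13669 ± 728 and 14545 ± 195 CPM at 6 months (SD). The log2 fold change of OPA1+/- over OPA1+/+ was 0.09 ± 0.05 (standard error, adjusted p = 0.652) at 3 months and 0.09 ± 0.06 (adjusted p = 0.631) at 6 months. Over both ages it was 0.09 ± 0.04 (unadjusted p = 0.0329, adjusted p = 0.340 by edgeR), and the 95% interval of the change ran from 0.557% to 12.5%.

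The OPA1+/+ libraries of 3 months that were high in Aldh3a1 were also high in Krt12. In replicates 1 to 4 Krt12 was at 26583, 27841, 32151 and 32863 CPM, in the same order of libraries as Aldh3a1. The summed corneal epithelium markers ran from 45380 to 53326 CPM in that group, from 47921 to 52724 CPM in OPA1+/- at 3 months, from 45512 to 46804 CPM in OPA1+/+ at 6 months and from 45481 to 48013 CPM in OPA1+/- at 6 months. Their part in the spread of Aldh3a1 was not tested. Between genotypes at 3 months Krt12 did not follow Aldh3a1, with means of 29859 CPM in OPA1+/+ and 29179 CPM in OPA1+/-. At 6 months its means were 27180 and 27744 CPM, in the same direction as Aldh3a1. Clock gene transcripts also set 1 group apart: a log2 contrast of Arntl, Npas2 and Clock against Dbp, Tef, Nr1d2 and Per3 was at 0.88 to 1.11 in OPA1+/+ at 6 months and at most 0.19 elsewhere. With this contrast as a covariate the genotype value of Aldh3a1 over both ages was -0.012 (adjusted p = 0.989), in place of 0.09. Because the contrast nearly coincides with 1 group, this fit can hardly separate it from genotype at 6 months, and no conclusion was drawn.

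Tkt was at 5490, 5880, 5612 and 5995 CPM in OPA1+/+ and at 5571, 5710, 6145 and 6186 CPM in OPA1+/- at 3 months. At 6 months the OPA1+/+ libraries were at 5786, 6450 and 6341 CPM and the OPA1+/- libraries at 5952, 5837, 6060 and 6172 CPM. The genotypes overlapped at each age, and Tkt had the narrowest range of the 7 genes. Its log2 fold change was 0.04 ± 0.05 at 3 months (95% interval of the change -3.96% to 9.95%) and -0.04 ± 0.05 at 6 months (-9.84% to 4.32%), with adjusted p-values of 0.845 and 0.833 by edgeR. Without the pair of libraries with rod transcripts these log2 values were 0.011 and -0.09.

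Aldh3a2 gave the smallest p of the 7 genes at 3 months. It was at 30.4, 30.9, 29.1 and 30.4 CPM in OPA1+/+ and at 29.4, 28, 26.7 and 24.9 CPM in OPA1+/-. Replicate 1 of OPA1+/- lay above replicate 3 of OPA1+/+, and the other 3 OPA1+/- libraries lay below all 4 OPA1+/+ libraries. The log2 fold change was -0.15 ± 0.06 (unadjusted p = 0.0315, adjusted p = 0.492 by edgeR; 95% interval -17.7% to -1.004%). The lowest library, OPA1+/- replicate 4, is one of the pair with rod transcripts, and without that pair the log2 value was -0.11 (adjusted p = 0.663). At 6 months Aldh3a2 was at 30.5, 26.5 and 27.5 CPM in OPA1+/+ and at 28.1, 27.6, 27.5 and 26.0 CPM in OPA1+/-, with overlap and a log2 fold change of -0.05 ± 0.07 (adjusted p = 0.888), which turned to 0.015 without that pair.

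The retinaldehyde enzymes and Aldh1a7 varied more between libraries than they differed between genotypes. Aldh1a1 at 3 months was at 164, 199, 137 and 206 CPM in OPA1+/+ and at 135, 145, 197 and 175 CPM in OPA1+/-. Its log2 fold change was -0.11 ± 0.18 at 3 months and 0.14 ± 0.19 at 6 months, with 95% intervals of -29.4% to 21% and -17.5% to 47.4%. Changes of that size could not be told from none at this spread. Aldh1a3 at 3 months was at 163, 158, 228 and 186 CPM in OPA1+/+ and at 179, 213, 158 and 162 CPM in OPA1+/-, a log2 fold change of -0.05 ± 0.12. At 6 months it had 0.12 ± 0.13. Aldh1a7, at 91 to 163 counts per library, had -0.10 ± 0.15 and 0.01 ± 0.17. The adjusted p of these 6 values was at least 0.823 by edgeR. Without the pair of libraries with rod transcripts, the values at 6 months were 0.05 for Aldh1a1, 0.21 for Aldh1a3 and 0.19 for Aldh1a7, and that of Aldh1a3 at 3 months was -0.011, none past the threshold.

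Aldh2, the mitochondrial member, was at 139, 129, 129 and 141 CPM in OPA1+/+ and at 125, 133, 146 and 135 CPM in OPA1+/- at 3 months. Both groups averaged 135 CPM, with SDs of 6.61 and 8.83, and the 95% interval of the genotype change was -7.90% to 8.58%. At 6 months the means were 144 ± 7.55 and 147 ± 10.1 CPM, and the interval was -6.63% to 11.5%. The 2 genotypes overlapped at both ages. On the log2 scale the value at 6 months was 0.03 ± 0.06, and 0.05 without the pair of libraries with rod transcripts, and at 3 months it was -0.00799 without them.

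**Figure D3:**
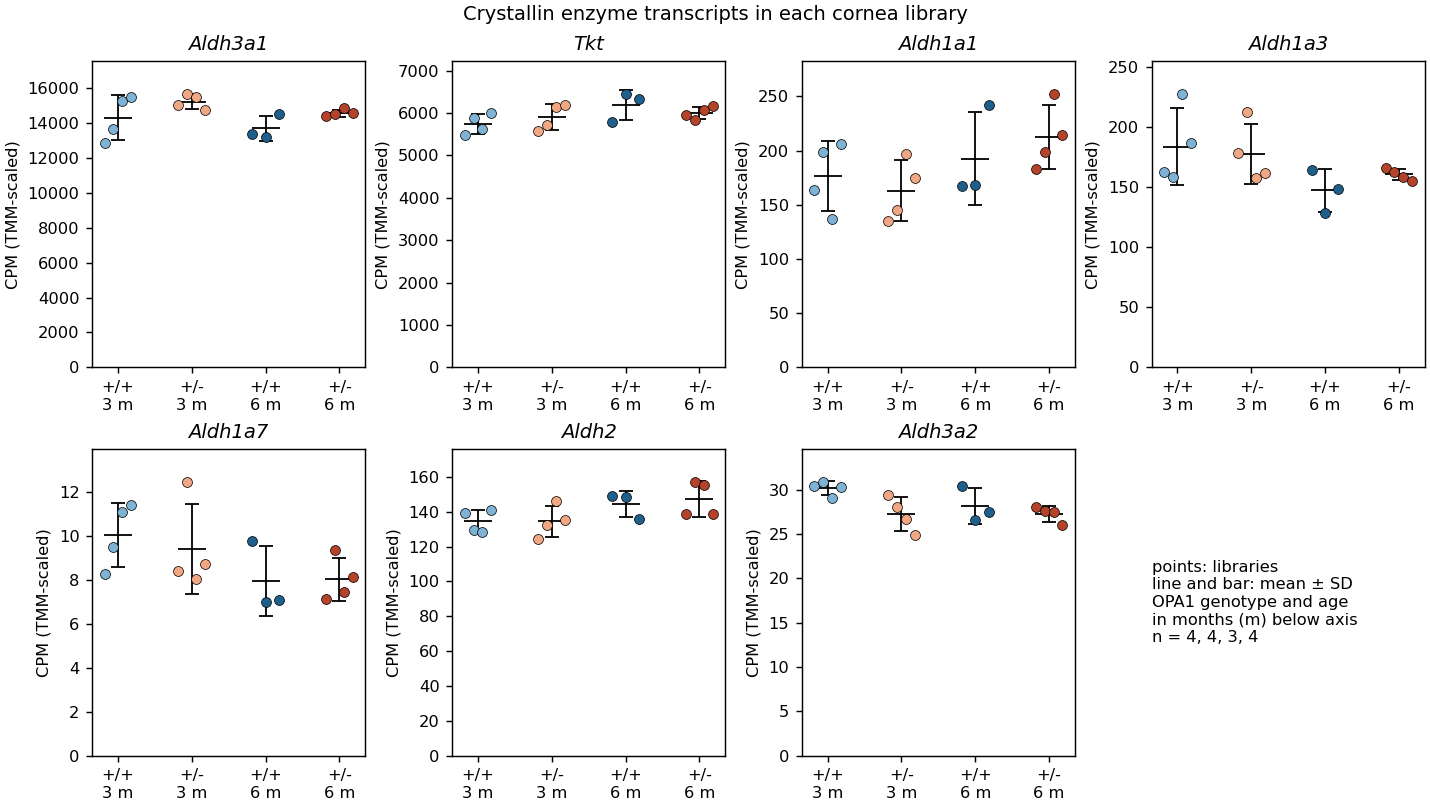
CPM of each gene (linear axes from 0) in the 4 groups, with libraries as points and mean ± SD as line and bar. The genotypes overlap at each age in every panel, and the points of Aldh1a1, Aldh1a3 and Aldh1a7 are the most scattered.

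The second comparison asked whether levels differed between 3 and 6 months. None of the 7 genes passed in OPA1+/+, in OPA1+/- or averaged over genotypes, where 0.0507%, 0.0824% and 0.412% of all genes were called by edgeR. DESeq2 and limma voom called 0 of the 7 as well. The members with an unadjusted p under 0.05 numbered 2, 1 and 3, against 10.2%, 9.06% and 11.9% of all genes. Their medians were -0.06, 0.0026 and -0.05 on the log2 scale, beside 0.0010, -0.00045 and 0.00097 over all genes.

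Aldh2 was at 149, 148 and 136 CPM in OPA1+/+ and at 139, 157, 155 and 139 CPM in OPA1+/- at 6 months, after the 3-month values given above. The ages overlapped in both genotypes. Averaged over genotypes, the log2 value of 6 over 3 months was 0.12 ± 0.04 (unadjusted p = 0.0113), and its adjusted p of 0.244 by edgeR was the smallest of the 49 tests on the 7 genes. The 95% interval ran from 2.07% to 15.2%.

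Aldh1a3 at 6 months was at 165, 129 and 149 CPM in OPA1+/+ and at 166, 163, 158 and 156 CPM in OPA1+/-, against 158 to 228 CPM in the 8 libraries of 3 months. The 2 highest libraries of the series, OPA1+/+ replicate 3 at 228 CPM and OPA1+/- replicate 2 at 213 CPM, were both of 3 months. Its log2 age value was -0.32 ± 0.13 in OPA1+/+ (unadjusted p = 0.0332, adjusted p = 0.433) and -0.15 ± 0.12 in OPA1+/- (adjusted p = 0.775). Averaged, it was -0.23 ± 0.09 (adjusted p = 0.329 by edgeR; 95% interval -25.7% to -2.48%).

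Aldh1a7 at 3 months was at 8.26, 9.49, 11.1 and 11.4 CPM in OPA1+/+ and at 8.42, 12.5, 8.06 and 8.71 CPM in OPA1+/-. At 6 months it was at 9.78, 7.01 and 7.06 CPM and at 7.14, 9.36, 7.46 and 8.12 CPM. The ages overlapped in both genotypes, and the highest 6-month library in OPA1+/+, replicate 1, is the other library with rod transcripts. The averaged log2 age value was -0.28 ± 0.11 (adjusted p = 0.311 by edgeR; 95% interval -30.1% to -3.27%) and -0.39 without the pair of libraries with rod transcripts (adjusted p = 0.114). In OPA1+/+ alone it was -0.34 ± 0.17 with all libraries and -0.52 without that pair (adjusted p = 0.214).

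The 2 libraries highest in Aldh1a3, which were also 2 of the 3 highest in Aldh1a7, had conjunctiva markers at 743 and 708 CPM, among the 3 highest sums of the series. The 8 markers of this list summed to 541 to 743 CPM in OPA1+/+ and 380 to 708 CPM in OPA1+/- at 3 months, and to 407 to 721 CPM and 370 to 559 CPM at 6 months, and 6 of the 8 passed the filter. The goblet cell markers Tff3 and Muc5ac were at 0 in 15 and 6 libraries. As a mean log2 score of the conjunctiva markers, the 2 libraries highest in Aldh1a3 were at 0.23 and 0.25. The highest score was 0.75, in OPA1+/+ replicate 1 at 6 months. For corneal epithelium markers the same 2 libraries had the highest scores of the series, 0.18 and 0.21. With the conjunctiva score as a covariate the averaged age value was -0.20 for Aldh1a3 and -0.19 for Aldh1a7, of the same sign. The part of either marker list beyond that was not tested.

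Aldh1a1 was at 167, 168 and 242 CPM in OPA1+/+ and at 183, 199, 252 and 214 CPM in OPA1+/- at 6 months. In OPA1+/-, 3 of the 4 libraries of 6 months lay above all 4 of 3 months, and replicate 1 lay within their range. The log2 age value there was 0.38 ± 0.18 (adjusted p = 0.563 by edgeR; 95% interval -0.521% to 70.3%), and in OPA1+/+ it was 0.13 ± 0.19 (adjusted p = 0.881), or 0.21 without the pair of libraries with rod transcripts.

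The 2 most abundant members had small age values. Tkt had 0.11 ± 0.05 in OPA1+/+ (unadjusted p = 0.0440, adjusted p = 0.475; 95% interval 0.224% to 16%) and 0.02 ± 0.05 in OPA1+/- (adjusted p = 0.923), the latter 0.05 without the pair of libraries with rod transcripts. Aldh3a1 had -0.06 ± 0.06 in OPA1+/+ and -0.06 ± 0.05 in OPA1+/-, with 95% intervals of -11.9% to 3.86% and -11.3% to 3.29%. The count ratio of Aldh3a1 to Tkt within a library, in which library size cancels, was 2.32 to 2.71 in OPA1+/+ at 3 months, 2.38 to 2.74 in OPA1+/- at 3 months, 2.04 to 2.305 in OPA1+/+ at 6 months and 2.35 to 2.48 in OPA1+/- at 6 months. The 3 libraries of OPA1+/+ at 6 months held the 3 lowest ratios of the series, a description with no test. Aldh3a2 had -0.10 ± 0.07 in OPA1+/+ and 0.0026 ± 0.06 in OPA1+/-, and -0.16 and -0.039 without the pair of libraries with rod transcripts.

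**Figure D4:**
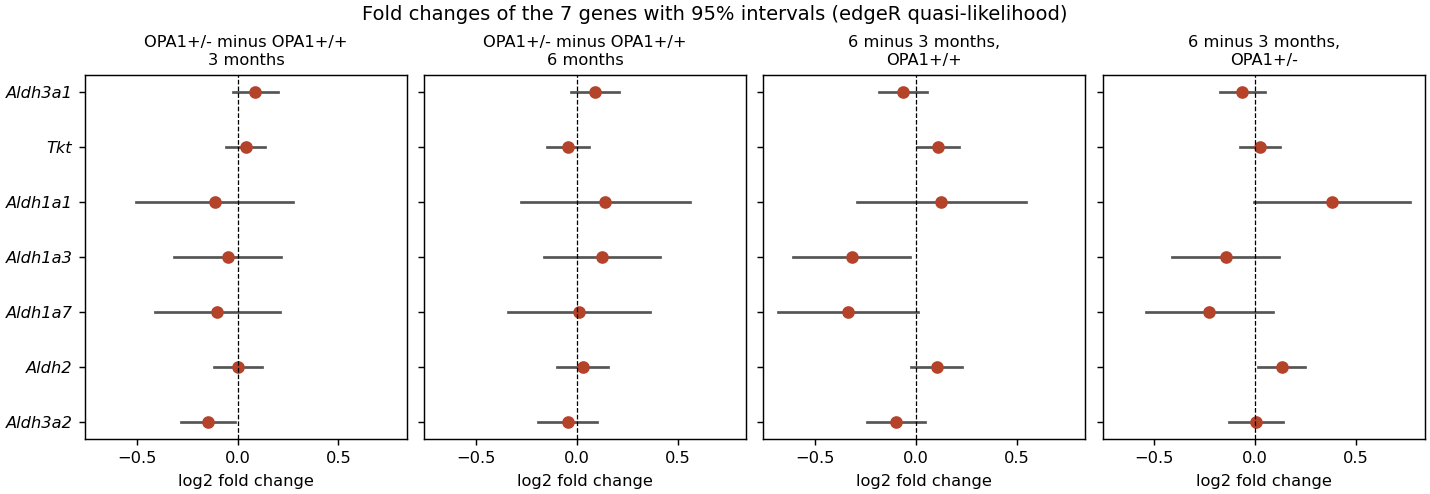
Log2 fold changes of the 7 genes (points) with 95% intervals (lines) for genotype at each age and for age in each genotype, from edgeR. Intervals are narrow for Aldh3a1, Tkt, Aldh2 and Aldh3a2 and wide for Aldh1a1, Aldh1a3 and Aldh1a7, and no gene passed after adjustment.

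Whether the genotype difference itself changed with age was tested as an interaction. None of the 7 genes passed, and edgeR called 0% of all genes. At an unadjusted p under 0.05 there were 0 of the 7 and 6.91% of all genes, and DESeq2 and limma voom called 0 of the 7. Estimates ran from -0.08 ± 0.07 for Tkt to 0.25 ± 0.26 for Aldh1a1 on the log2 scale. For Aldh3a1 the estimate was 0.0010 ± 0.08, with a 95% interval of -10.6% to 12%, and -0.027 without the pair of libraries with rod transcripts.

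The members differed in how much they varied between libraries. From the lowest to the highest of the 15 libraries Tkt varied 1.17-fold, Aldh3a1 1.22-fold, Aldh3a2 1.24-fold and Aldh2 1.26-fold, whereas Aldh1a3 varied 1.77-fold, Aldh1a7 1.78-fold and Aldh1a1 1.87-fold. Within groups the coefficient of variation was 4.58% for Tkt, 5.30% for Aldh3a1, 13.2% for Aldh1a3 and 18.2% for Aldh1a1. Among the 1986 genes within 2-fold of its level, Aldh1a1 was more variable than 98.1%. Aldh1a3 exceeded 95.5% of 2228 such genes, Aldh1a7 85.1% of 3818, Aldh2 66.3% of 2608 and Aldh3a2 19.2% of 4505, so Aldh2 was not among the steadier genes of its level. Tkt and Aldh3a1 had only 12 and 8 genes within 2-fold of their level.

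Across the 15 libraries Aldh1a3 and Aldh1a7 rose and fell together. Pearson's r of log2 CPM was 0.81 (permutation p adjusted over 21 pairs = 0.00378) and Spearman's rho 0.75 (adjusted permutation p = 0.0155). Without the 2 libraries farthest from the median of Aldh1a7, r was 0.72, and with group means removed it was 0.74. The pairs Aldh1a3 with Tkt (r = -0.68, rho = -0.77) and Aldh3a2 with Tkt (r = -0.68, rho = -0.74) ran in opposite directions, each with an adjusted permutation p of 0.0419 for r and 0.0155 for rho. They had r of -0.65 without the 2 libraries farthest from the median of Aldh1a3 and -0.72 without the 2 farthest from that of Aldh3a2, and -0.53 and -0.75 with group means removed. The permutations ran across the groups, so their p-values also take in differences between groups. The values with group means removed were given no p.

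The near copies Aldh1a1 and Aldh1a7 did not share this pattern, with r = -0.44 (adjusted permutation p = 0.216) and rho = -0.36. Their count ratio ran from 11.7 in OPA1+/- replicate 2 at 3 months to 34.3 in OPA1+/+ replicate 3 at 6 months. Aldh3a1 and Tkt had r = 0.01 (adjusted permutation p = 0.975) and rho = -0.04. The other pairs had adjusted permutation p-values for r of at least 0.0652. Both genes of a pair share each library's scaling factor.

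**Figure D5:**
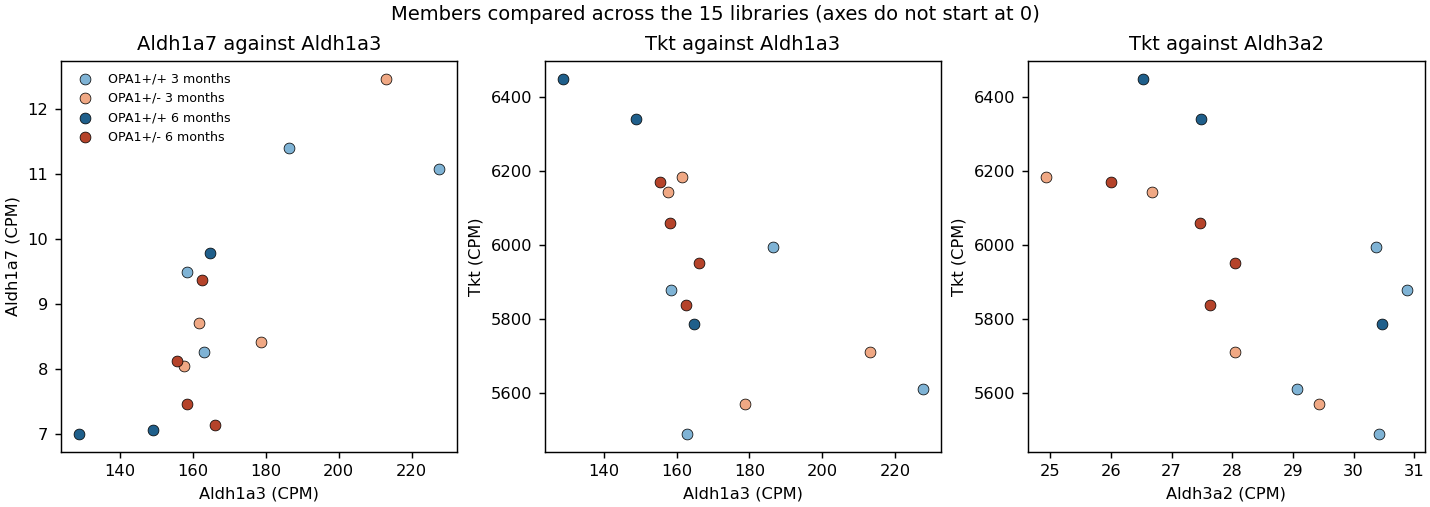
CPM of Aldh1a7 against Aldh1a3, Tkt against Aldh1a3 and Tkt against Aldh3a2, with 15 libraries as points coloured by group (axes do not start at 0). The first panel rises (r = 0.81) and the other 2 fall (r = -0.68 each). The 2 libraries highest in Aldh1a3 are of 3 months. With group means removed r was 0.74, -0.53 and -0.75.

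Likeness to all other genes was measured by r of log2 CPM over the 15 libraries, among the 9256 genes that averaged 10 CPM or more, and is a description. The genes most like Aldh3a1 were Ucp2, a mitochondrial carrier (r = 0.98), the replication licensing factor Cdt1 (0.93), Actb (0.92), the replicative helicase subunit Mcm2 (0.91) and the actin regulator Wdr1 (0.90). Ucp2 was at 430, 465, 568 and 574 CPM in OPA1+/+ at 3 months, in the same order of libraries as Aldh3a1, and at 428 to 624 CPM in the series. Those most like Tkt were N4bp3 (0.93), Ankrd9 (0.91), Apopt1 (0.86), Phldb3 (0.84) and Cdv3 (0.84). Aldh1a3 and Aldh1a7 had Pdia4, a protein disulfide isomerase of the endoplasmic reticulum, in common among their closest genes (0.91 and 0.90). Aldh1a3 was also close to Gdpd2 (0.89) and to the basal keratin Krt14 (0.89), which ranged from 137 to 477 CPM and was highest in the same 2 libraries as Aldh1a3. Aldh1a7 was close to the transcription factor Ets2 (0.92) and to Zfyve26 (0.90). The closest genes were Sucla2, Rnf152 and Pign for Aldh1a1 (0.86, 0.86 and 0.84), Dedd, Impa1 and Rbck1 for Aldh2 (0.79, 0.79 and 0.74), and Rapgef4, Mkrn1 and Zfyve1 for Aldh3a2 (0.85, 0.84 and 0.83).

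Other genes of the same pathways gave the setting of these values. Of 15 other aldehyde dehydrogenase genes 11 passed the filter, and none of them passed the test in either direction in any of the 7 comparisons. Calls in this and the following lists are by edgeR alone. It called 0% to 0.793% of all genes, depending on the comparison, so 0 calls in lists this short says little about them. Per length the highest were Aldh3b2 (62.1 RPKM), Aldh6a1 (10.4), Aldh9a1 (8.71) and Aldh4a1 (4.70), so Aldh3b2 lay above every member but Aldh3a1 and Tkt on the files' gene length. Aldh1a2, the third retinaldehyde dehydrogenase, averaged 0.11 CPM. Of 13 other pentose phosphate genes 11 passed the filter and none passed the test. Transaldolase (Taldo1, 76.5 RPKM), which works beside transketolase, and glucose-6-phosphate dehydrogenase (G6pdx, 71.4 RPKM), which feeds the pathway, were followed by Pgd (24.4) and H6pd (13.1), all below the 808 RPKM of Tkt. The transketolase-like genes Tktl1 and Tktl2 averaged 0.026 and 0.0053 CPM.

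Among 21 retinoid genes 16 passed the filter and none passed the test. The alcohol dehydrogenases Adh1 (394 RPKM) and Adh7 (215 RPKM), which can form the retinaldehyde that ALDH1A enzymes use, led the list, with the receptors Rarg (86.2 RPKM) and Rxra (28.6 RPKM) next. Adh7 came closest to the threshold, at 873 ± 71.5 and 878 ± 57.5 CPM in OPA1+/+ and at 750 ± 63.5 and 765 ± 57.3 CPM in OPA1+/- at 3 and 6 months. Its log2 genotype value over both ages was -0.21 ± 0.05 (adjusted p = 0.0653 by edgeR).

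Of 34 genes of aldehyde and peroxide defence 33 passed the filter and none passed the test. The highest were the glutathione transferase genes Gsto1 (3713 RPKM) and Gsta4 (2600 RPKM), between Aldh3a1 and Tkt in level, and the peroxiredoxins Prdx6 (124 RPKM) and Prdx5 (117 RPKM). A further 4 genes for soluble proteins called corneal crystallins in other vertebrates were also present, namely gelsolin (Gsn, 185 RPKM), Ppia (60.2), Idh1 (34.7) and Eno1 (18), all counted below Tkt. Reads marked as mapping to several places would not be counted. Unique windows were examined for the 7 members only, so the levels of these 4 genes may be too low. None of the 4 passed the test, and their median log2 values for age averaged over genotypes and for genotype averaged over ages were -0.10 and 0.01. The largest of these was Gsn, at -0.18 ± 0.05 for age (adjusted p = 0.114 by edgeR).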

How the data were processed

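Each deposited file holds raw read counts, 1 whole number per gene, for 1 library. Per the file headers, the authors counted with featureCounts 2.0.1 over exons summed by gene, strand setting 2 and GENCODE mouse annotation release 28, with no option for reads that map to several places, so reads marked as mapping to both near copies Aldh1a1 and Aldh1a7 would not be counted. The aligner was not given in the sources used here. The submitters' processing notes name mm10 and DESeq2, whereas release 28 is on GRCm39, and coordinates are printed as in the files. Per the labels' protocols, ribosomal RNA was depleted and single 75-base reads were sequenced.

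Symbols matched 52081 of 55357 identifiers (94.1%). Libraries held 11673240 to 18194946 counts. One edgeR 4.0.16 quasi-likelihood model (R 4.3.3, robust, TMM factors, filterByExpr on the 4 groups, 15770 genes, 11 residual degrees of freedom) was fitted to all 15 libraries with 1 mean per group. The threshold was a Benjamini-Hochberg adjusted p of 0.05 over all tested genes. A standard error is the size of the log2 value over the root of F, and the same fit gave the 95% intervals. The procedure was tested on simulated counts with the same biological coefficient of variation, 0.088, for every gene. That is below the values of Aldh1a1 (0.17), Aldh1a7 (0.13) and Aldh1a3 (0.12) and above those of the other members. The simulation therefore does not show how well changes in Aldh1a1, Aldh1a7 and Aldh1a3 are recovered. Shares are raw counts over the library total with exact Clopper-Pearson intervals, and RPKM is raw CPM per kilobase of the files' gene length. Marker sums and the means of Gm42879, Aldh1a2, Tktl1 and Tktl2 are also raw CPM, without TMM factors. Correlations used 100000 permutations over all 15 libraries without regard to group, two-sided. Named genes were the 7 members, the 5 or 3 genes most like each by r, and the 4 genes of each pathway list with the highest RPKM. Members and lists were chosen with earlier results of these data known. Alternatives were DESeq2 1.42.0 and its size factors, limma 3.58.1 voom with sample weights, 2 other filters, totals without the mitochondrial chromosome, the replicate block, fits of 2 groups, clock and conjunctiva covariates, and libraries left out.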

Additional observations from a re-analysis of the deposited data

Results flagged for a closer look

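Aldh1a7 in OPA1+/- replicate 2 at 3 months lay apart from the rest of its group, at 12.5 CPM (163 counts) against 8.06, 8.42 and 8.71 CPM in the other 3 libraries. The gap to the nearest library was 0.851 of the group's range. Without this library the log2 genotype value of Aldh1a7 at 3 months was -0.26 in place of -0.10, with an adjusted p of 0.547 by edgeR. The same library was the second highest of the 15 in Aldh1a3, at 213 CPM. Of 24 groups of 4 libraries that were examined 1 was marked in this way, and chance marks about 1 in 20.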

How the results depend on the processing

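No member was called in any of the 7 comparisons under any of the 26 alternatives, which gave 1253 member values with a smallest adjusted p of 0.112 (Aldh3a1, genotype averaged over ages, limma voom). The sign changed in 92 of these values, none of them past the threshold, and the cause was not tested.

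The clock covariate is high in OPA1+/+ at 6 months alone, so fits with it can hardly separate it from genotype at 6 months. With it, log2 values turned as follows. Genotype at 6 months was -0.12 for Aldh3a1, -0.13 for Aldh1a1, -0.60 for Aldh1a7 and -0.18 for Aldh1a3. Averaged genotype was -0.012 for Aldh3a1, -0.12 for Aldh1a1 and -0.11 for Aldh1a3, and genotype at 3 months was -0.000311 for Aldh2. Age in OPA1+/+ was 0.12 for Aldh3a1 and 0.21 for Aldh1a7, age in OPA1+/- was -0.0027 for Aldh3a2, and averaged age was 0.017 for Aldh3a1. The interaction was -0.21 for Aldh3a1, -0.024 for Aldh1a1, -0.50 for Aldh1a7 and -0.12 for Aldh1a3. With the conjunctiva covariate, Aldh1a7 had 0.021 for genotype at 3 months and 0.082 averaged, Aldh3a2 0.000399 for genotype at 6 months, Aldh1a1 -0.00737 for averaged genotype and Tkt -0.0019 for age in OPA1+/-. Without the 2 libraries with rod transcripts, Aldh2 had -0.00799 for genotype at 3 months, Aldh3a2 0.015 for genotype at 6 months and -0.039 for age in OPA1+/-, Aldh1a1 and Aldh1a7 -0.053 and 0.0600 for averaged genotype, and Aldh3a1 -0.027 for the interaction. The genotype value of Aldh2 at 3 months was -0.0062 with DESeq2 and with its size factors, -0.00701 with a mean of at least 1 CPM, -0.00879 with only the 2 groups compared and -0.0039 without mitochondrial chromosome genes. The interaction of Aldh3a1 was -0.017 with limma voom and -0.000251 with no filter.

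Leaving out each library in turn, genotype at 3 months ran from -0.046 to 0.0303 for Aldh2 and -0.15 to 0.061 for Aldh1a3. Genotype at 6 months ran from -0.089 to 0.015 for Aldh3a2, -0.075 to 0.19 for Aldh1a7 and -0.017 to 0.055 for Aldh2. Averaged genotype ran from -0.043 to 0.11 for Aldh1a1, -0.017 to 0.092 for Aldh1a3, -0.012 to 0.028 for Aldh2, -0.026 to 0.00998 for Tkt and -0.13 to 0.044 for Aldh1a7. Age ran from -0.076 to 0.22 for Aldh1a1 in OPA1+/+, and in OPA1+/- from -0.000255 to 0.0505 for Tkt and -0.038 to 0.044 for Aldh3a2. The interaction ran from -0.0300 to 0.0502 for Aldh3a1 and -0.0093 to 0.074 for Aldh2. Other values kept their sign but several moved by over 1.5 times. Genotype at 3 months ran from 0.038 to 0.12 for Aldh3a1, -0.23 to -0.039 for Aldh1a1, -0.26 to -0.043 for Aldh1a7 and 0.0105 to 0.061 for Tkt, and at 6 months from 0.048 to 0.34 for Aldh1a1, 0.032 to 0.21 for Aldh1a3 and -0.091 to -0.016 for Tkt. Age in OPA1+/+ ran from -0.11 to -0.031 for Aldh3a1, -0.51 to -0.25 for Aldh1a7, -0.41 to -0.205 for Aldh1a3 and -0.16 to -0.059 for Aldh3a2, in OPA1+/- from -0.31 to -0.0705 for Aldh1a7 and -0.196 to -0.049 for Aldh1a3, and averaged from 0.15 to 0.304 for Aldh1a1 and -0.078 to -0.028 for Aldh3a2. The interaction ran from 0.16 to 0.46 for Aldh1a1, 0.028 to 0.29 for Aldh1a7, 0.062 to 0.27 for Aldh1a3, 0.062 to 0.16 for Aldh3a2 and -0.13 to -0.052 for Tkt.

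The counts gave no sign that the replicate numbers of the titles pair the libraries, though this check cannot exclude pairing. Deviations from group means correlated at -0.156 to 0.291 in the 21 same-numbered pairs, with a median of 0.0036 against 0.0019 for other pairs, and 3 of 15 libraries correlated best with their own number. With the replicate block, 0 members were called in each comparison. The block turned Aldh2 to -0.000851 for genotype at 3 months, Aldh1a7 to -0.0073 for genotype at 6 months, Aldh1a1 to -0.012 for averaged genotype and Aldh3a1 to -0.0089 for the interaction. Calls over all genes with the block were 0, 48 and 90 for genotype at 3 months, 6 months and averaged, in place of 1, 51 and 125, and 0, 3 and 42 for age in OPA1+/+, in OPA1+/- and averaged, in place of 8, 13 and 65.

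Calls over all genes, for genotype at 3 months, 6 months and averaged, age in OPA1+/+, in OPA1+/- and averaged, and the interaction in this order, were 43, 181, 314, 117, 70, 242 and 21 with DESeq2, 5, 105, 244, 19, 32, 120 and 0 with limma voom, 45, 140, 256, 105, 83, 216 and 19 with no filter, 2, 14, 19, 138, 6, 250 and 9 without the 2 libraries with rod transcripts, 1, 0, 0, 0, 1, 1 and 0 with the clock covariate and 0, 18, 2, 0, 7, 19 and 1 with the conjunctiva covariate. With only the 2 groups compared they were 0 and 197 for genotype at 3 and 6 months and 2 and 34 for age in OPA1+/+ and OPA1+/-.

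With the length of the principal transcript, an alternative chosen after seeing the data, levels were 8371 RPKM for Aldh3a1, 78.7 for Aldh1a1, 49.0 for Aldh1a3, 36.2 for Aldh2, 9.13 for Aldh3a2 and 1845 for Tkt. Depth limits Aldh1a7 most, at 91 to 163 counts per library.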
